A study of Mus musculus with 64 samples.

Results

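Granulocyte-monocyte progenitors (GMP) were compared with megakaryocyte-erythrocyte progenitors (MEP) of Smarcd2 +/- (HET) mouse fetal liver. The HET columns of the GMP table were set against the HET columns of the MEP table over the genes listed in both, with replicate 8 left out of each population. That gave 6 GMP and 6 MEP libraries, replicates 1, 3, 4, 7, 9 and 10 of each, so 12 of the 64 libraries of the series, and libraries with the same replicate number were treated as pairs. The embryos were C57BL/6 and 13 or 14 days post coitum. Both populations were sorted as CD45+ Lin- Sca-1- cells of the c-Kit compartment. The GMP gate took CD34+ cells with high CD16/32, and the MEP gate took cells low for both antigens. For c-Kit (CD117), the antigen named in the staining protocol, the gate labels have CD177. Both populations are Smarcd2 +/-, with 1 mutant and 1 intact allele. Wild-type (WT) and Smarcd2 -/- (KO) pairs, 3 of each, were used only to compare the difference between populations across genotypes.

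GMP give rise to neutrophils and monocytes and, through further intermediates, to eosinophils and basophils. Their program rests on PU.1 and the C/EBP factors, and granule protein genes are among its first outputs. MEP give rise to red cells and platelets under GATA1, KLF1 and their partners, which drive haem, globin and red cell membrane genes. Smarcd2 encodes a subunit of the BAF chromatin remodelling complex that granulocyte formation requires.

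Reads assigned to genes ranged between 1614881 and 4831491 in GMP libraries (median 3169470) and between 1488328 and 5646315 in MEP libraries (median 2870110). Levels are CPM, read counts scaled to a common library size after TMM normalisation, and a log2 fold change is GMP over MEP. Listed genes number 27892 for GMP, 13050 for MEP and 12911 for both. The populations were deposited in separate tables with different listing filters, so population and table cannot be told apart. In bulk libraries, fewer cells of a type and less RNA per cell cannot be told apart either. The labels do not say that replicates come from separate fetuses, so p-values measure the spread between these libraries. Sex-linked transcripts matched within all 6 pairs, with 2 pairs high for Xist and 4 high for Y-linked genes.

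GMP libraries 7 and 9 stood apart from the other 4. Their index of long against short transcripts was -1.52 and -1.0, against -0.11 to 0.45 in the other GMP libraries and -0.17 to 0.58 in MEP libraries. Each gene's level was first centred over the 12 libraries, and the index is the median of transcripts above 5000 bases minus the median of those below 1500 bases. The median SD of a gene, on the log2(CPM + 1) scale, was 0.635 in GMP and 0.294 in MEP libraries. Leaving out replicates 7 and 9 gave 0.250 in GMP and 0.317 in MEP libraries. Mitochondrial genes took 2.35 to 5.15% of reads in GMP and 5.32 to 7.34% in MEP libraries. The part of the mitochondrial share in the results was not tested. A model with the length index was run after seeing the data, and its count of called genes is given at the end. The index was taken from the same libraries, so that model does not settle the part of transcript length. For lists whose calls moved most, the counts without replicates 7 and 9 are given.

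**Figure D1:**
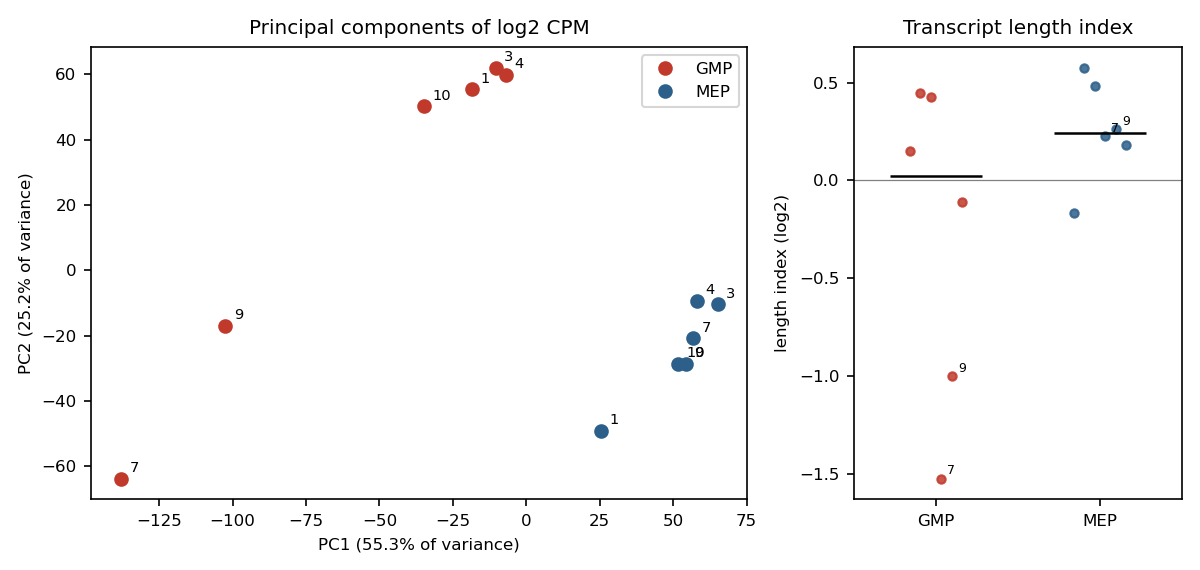
Left, the first 2 principal components of the 12 HET libraries on edgeR log2 CPM (prior count of 2) of the tested genes, with GMP and MEP libraries marked and replicates numbered. Right, the transcript length index of each library on the log2 scale, GMP left of MEP; GMP libraries 7 and 9 lie at -1.52 and -1.0, below all others.

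Of 11019 genes tested, 1141 (10.4%) were higher and 725 (6.58%) were lower in GMP than in MEP, at an edgeR adjusted p under 0.05. The median log2 fold change over all tested genes was -0.03. The 6 values of one population lay wholly above the 6 of the other for 1065 genes (9.67%) higher in GMP and 724 genes (6.57%) lower in GMP. A change beyond 2-fold, tested against that fold, held for 450 (4.08%) higher and 269 (2.44%) lower. Without replicates 7 and 9, 2026 of 10860 genes (18.7%) were higher and 1624 (15%) lower, and 1802 of the 1866 called genes were kept with 0 reversed. List counts from that fit, given below, are to be read beside these larger shares. Without replicate 10 the number of called genes was 1138. The title numbers put replicates 1, 3, 4 and 7 in series M32 and replicates 9 and 10 in series M33. Within series M32, 667 genes were called, and within series M33, 1623. Of the 634 genes in 30 lists read below, 476 were tested, and a gene near 0 in one population entered the test through the other, so counts over tested members are not counts over all listed genes. All 1831 of the called genes with a value in M32 had the same direction there, as did all 1863 in M33, and 638 and 1114 were also called there. The calls were made from these same pairs, so neither this agreement nor the 0 reversed above is a separate test.

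**Figure D2:**
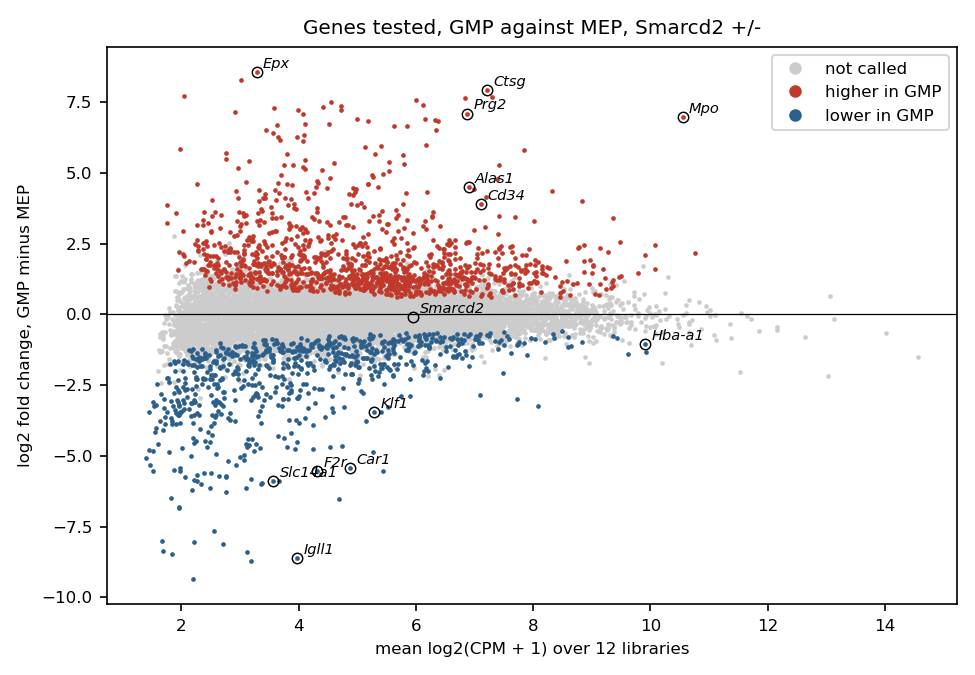
Log2 fold change of GMP over MEP against the mean log2(CPM + 1) over the 12 libraries, 1 point for each of the 11019 tested genes, with called genes coloured and named genes circled. Igll1 lies at -8.62 and Ctsg at 7.93, near opposite edges of the cloud.

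The sorting antigens were read first, as a check of the gates. Cd34, the sialomucin that splits the 2 gates, had 416 to 677 CPM (median 512) in GMP libraries, against 27.0 to 48.5 CPM (median 34.6) in MEP libraries, so that the log2 fold change was 3.89 ± 0.22 (± SE throughout), with an edgeR adjusted p of 2.31e-05. Fcgr3, which encodes CD16, had 587 to 1291 CPM (median 721) in GMP libraries, against 1.47 to 17.3 CPM (median 3.83) in MEP libraries (7.42 ± 0.62 log2; adjusted p = 8.34e-05). All 6 GMP libraries lay above all 6 MEP libraries for both genes. Fcgr2b, which encodes CD32, was also higher in GMP (5.91 log2; adjusted p = 4.88e-05), though reads of the related Fc receptor genes may be shared. Ptprc, which encodes CD45, was higher by 1.38 log2 (adjusted p = 0.00275), and its groups overlapped. Kit, which both gates use, had 38.8 to 239 CPM (median 206) in GMP libraries, against 151 to 282 CPM (median 252) in MEP libraries, and did not pass the test (-0.75 ± 0.43 log2; adjusted p = 0.263). The 2 lowest Kit values, 38.8 and 68.5 CPM, were those of GMP libraries 7 and 9. Itgam, which encodes Mac1, missed the threshold over all 12 libraries (2.53 log2; adjusted p = 0.0660) and passed without replicates 7 and 9 (3.83 log2; adjusted p = 6.57e-07).

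Smarcd2 itself (chr11:106263179-106272972, minus strand, GRCm38) had 37.6 to 93.3 CPM (median 61.9) in GMP libraries, against 47.7 to 77.8 CPM (median 67.8) in MEP libraries. The populations overlapped and did not pass the test (-0.09 ± 0.22 log2; adjusted p = 0.809), and the sign turned without replicates 7 and 9 (0.10 log2; adjusted p = 0.678). In the model of all 3 genotypes, Smarcd2 averaged 59.4 ± 18.9 CPM in HET, 0.717 ± 0.644 CPM in KO and 102 ± 0.791 CPM in WT GMP libraries (SD, n = 6, 3 and 3). In MEP libraries it averaged 62.7 ± 11.4 CPM in HET, 0.950 ± 0.605 CPM in KO and 107 ± 23.5 CPM in WT, so every KO library lay below every HET library in both populations. Of 24 other tested BAF subunit genes, Brd9 was higher in GMP (0.89 log2; adjusted p = 0.0420) and Bcl7a lower (-1.60 log2; adjusted p = 0.00353). The other 22 did not pass, Smarca4, an ATPase of the complex, among them (-0.74 log2; adjusted p = 0.0710). Leaving out replicates 7 and 9, 1 was higher and 3 lower. Over the 6 pairs, 16.9% of all tested genes were called. In both fits, the called share of these subunit genes lay below that of all tested genes, each way. The calls of Brd9 and Bcl7a are therefore not read as a change of the complex.

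Genes of the primary granule, the first granule that neutrophil precursors build, were higher in GMP throughout. All 15 members passed the test, with the 2 populations apart for every one, and their median log2 fold change was 6.33. Ctsg (chr14:56099881-56102574, minus strand), which encodes cathepsin G, had 1422 to 4273 CPM (median 2063) in GMP libraries, against 3.13 to 26.6 CPM (median 8.27) in MEP libraries (7.93 ± 0.60 log2; adjusted p = 5.98e-05). Elane (chr10:79886247-79888215, plus strand), which encodes neutrophil elastase, had 994 to 9887 CPM (median 1414) in GMP libraries, against 1.14 to 60.5 CPM (median 7.64) in MEP libraries (7.69 ± 1.11 log2; adjusted p = 0.00158). GMP library 7 was the highest for both genes, and library 9 the next. The promoters of this pair, which have the largest fold changes of the granule genes with an entry, are printed from RefSeq on GRCm38.p6, 250 bases before to 50 after the start site. Ctsg lies on the minus strand at chr14:56102525-56102824 and Elane on the plus strand at chr10:79886062-79886361, and capitals mark the PU.1 family letters GAGGAAG.
Ctsg: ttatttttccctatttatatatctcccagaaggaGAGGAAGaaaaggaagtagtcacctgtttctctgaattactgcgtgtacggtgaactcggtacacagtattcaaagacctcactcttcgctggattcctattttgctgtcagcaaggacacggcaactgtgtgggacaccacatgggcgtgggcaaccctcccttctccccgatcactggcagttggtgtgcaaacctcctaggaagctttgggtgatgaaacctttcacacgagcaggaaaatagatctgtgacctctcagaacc
Elane: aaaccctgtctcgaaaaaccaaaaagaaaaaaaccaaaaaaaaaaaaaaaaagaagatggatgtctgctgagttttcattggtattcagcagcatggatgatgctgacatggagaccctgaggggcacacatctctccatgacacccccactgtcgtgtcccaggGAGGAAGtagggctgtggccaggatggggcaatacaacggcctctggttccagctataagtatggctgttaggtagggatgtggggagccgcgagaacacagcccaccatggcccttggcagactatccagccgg
The match ran over bases 35 to 41 in Ctsg, from -216 to -210 of the start site, and over bases 166 to 172 in Elane, from -85 to -79.

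Mpo, the myeloperoxidase of these granules, had 10809 to 39961 CPM (median 13509) in GMP libraries, against 63.7 to 386 CPM (median 119) in MEP libraries (6.99 ± 0.60 log2; adjusted p = 9.36e-05). Prtn3, proteinase 3, and Prss57, a related serine protease, differed by 6.52 and 6.33 log2 (adjusted p = 1.84e-05 and 2.50e-05). Srgn, the proteoglycan that packs granule proteases, had 1726 to 2693 CPM (median 2117) in GMP libraries, against 167 to 257 CPM (median 198) in MEP libraries (3.42 ± 0.22 log2; adjusted p = 2.56e-05). The smallest change of the list was that of Ctsc, the peptidase that activates granule proteases (2.20 log2; adjusted p = 0.000875). Summed over the list, GMP libraries had 19678 to 77676 CPM, against 448 to 940 CPM in MEP libraries, and libraries 7 and 9 gave the 2 highest sums. Without them the 15 calls held, with a median of 6.00 log2. All 15 also held within series M32 and within series M33.

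Of a list of secondary and tertiary granule genes, which come later in neutrophil maturation, 6 of 7 tested members were higher (median 6.27 log2). The list is not limited to granule contents and holds the receptor gene Ltb4r1. Hp, which encodes haptoglobin, had 200.1 to 313 CPM (median 284) in GMP libraries, against 0.568 to 3.32 CPM (median 1.81) in MEP libraries (7.37 ± 0.43 log2; adjusted p = 2.33e-05). Ltb4r1, the leukotriene B4 receptor, differed by 7.31 log2 (adjusted p = 1.84e-05), and S100a8, a calcium-binding alarmin, by 6.65 log2 (adjusted p = 0.00100). Camp, the cathelicidin gene, was the member that did not pass (2.79 log2; adjusted p = 0.0897). Others of the 16 listed were too low or not in both tables: Ltf, Ngp and Mmp8 fell under the count filter, and Lcn2 was listed only for GMP, at 0.761 to 10.2 CPM. Mmp9, Chil3 and Padi4, also listed only for GMP, had at most 1.11, 1.08 and 0.555 CPM. The calls therefore do not show that late granule genes as a group were expressed in GMP. Stfa1 and BC100530, related stefin genes whose reads may be shared, differed by 7.58 and 7.5 log2 (adjusted p = 0.000206 and 0.000216).

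The enzymes of the respiratory burst were higher as well: all 6 tested NADPH oxidase genes passed, with a median of 3.45 log2. Cybb, its catalytic subunit gp91phox, had 30.7 to 100.2 CPM (median 75.8) in GMP libraries, against 1.42 to 7.0 CPM (median 4.49) in MEP libraries (4.12 ± 0.26 log2; adjusted p = 2.50e-05). The cytosolic subunits Ncf1 and Ncf4 differed by 3.87 and 3.91 log2. Of 5 tested genes of leukotriene and related lipid mediator synthesis, 4 were higher. Alox5, the 5-lipoxygenase, had 28 to 98.0 CPM (median 49.8) in GMP libraries, against 1.33 to 4.57 CPM (median 2.96) in MEP libraries (4.11 ± 0.24 log2; adjusted p = 2.33e-05), and no value overlapped. Its partner Alox5ap, Lta4h, which makes leukotriene B4, and the cyclooxygenase Ptgs1 differed by 4.34, 2.36 and 3.39 log2. Lysosomal genes followed the same direction in 17 of 25 tested, with a median of 1.66 log2 and none lower. Cd63, a membrane protein of lysosomes and granules, had 320.1 to 1693 CPM (median 463) in GMP libraries, against 17.1 to 37.2 CPM (median 27.1) in MEP libraries (4.43 ± 0.40 log2; adjusted p = 0.000131). Hexa, a hexosaminidase subunit, Grn, the progranulin gene, and Man2b1, a mannosidase, differed by 2.55, 2.25 and 2.0 log2. Leaving out replicates 7 and 9, 20 lysosomal genes were higher and 1 lower.

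Among 11 tested myeloid transcription factors, 5 were higher in GMP, 6 did not pass and the median was 1.2 log2. Spi1, which encodes PU.1, had 137 to 245 CPM (median 167) in GMP libraries, against 9.58 to 21 CPM (median 13.7) in MEP libraries (3.67 ± 0.27 log2; adjusted p = 5.76e-05). Cebpd, a C/EBP factor, had 23.6 to 62.1 CPM (median 26.6) in GMP libraries, against 0.327 to 1.33 CPM (median 1.01) in MEP libraries (5.16 ± 0.36 log2; adjusted p = 4.05e-05). Both genes had every GMP library above every MEP library. Cebpb, the monocyte factor Irf8 and Nfil3 were also higher (3.32, 2.51 and 3.59 log2). Cebpg, Zeb2, Junb, Id2, Sox4 and Irf5 did not pass; Id2, an inhibitor of E proteins, and Sox4 had values of -1.08 and -0.76 log2. The leading granulocyte factors Cebpa, Cebpe and Gfi1 stand in the GMP table only, with medians of 30.6, 53.2 and 59.6 CPM, and were not compared. When replicates 7 and 9 were left out, 7 of the factors were higher.

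Receptors and surface proteins of myeloid cells were higher for 18 of 21 tested, with a median of 2.86 log2 and none lower. Csf3r, the G-CSF receptor, had 33.2 to 116 CPM (median 109.8) in GMP libraries, against 1.75 to 3.32 CPM (median 2.22) in MEP libraries (5.20 ± 0.30 log2; adjusted p = 2.33e-05). The M-CSF receptor Csf1r and the GM-CSF receptor chains Csf2ra and Csf2rb differed by 3.44, 3.14 and 4.42 log2. The adaptors Tyrobp and Fcer1g, which pair with activating receptors, differed by 4.87 and 5.06 log2, and Clec5a, a lectin that signals through Tyrobp, by 6.84 log2. The groups were apart for these 7 genes. Itgam, Il17ra and Cd93 did not pass.

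Monocyte genes were higher for 10 of 13 tested, with a median of 4.0 log2. Ly6c2, a surface marker of inflammatory monocytes, had 103 to 188 CPM (median 143) in GMP libraries, against 0 to 4.38 CPM (median 0.860) in MEP libraries (7.09 ± 0.57 log2; adjusted p = 7.56e-05). F13a1, the factor XIII chain, and Plac8 differed by 5.65 and 4.0 log2 (adjusted p = 3.33e-05 and 4.88e-05). Ctss, Fn1 and Mpeg1 did not pass.

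Eosinophil genes had the largest median of the 30 lists, 7.22 log2, and all 7 tested were higher in GMP. Epx, the eosinophil peroxidase, had 25.8 to 143 CPM (median 82.6) in GMP libraries, against 0 to 1.33 CPM (median 0.0816) in MEP libraries (8.56 ± 0.67 log2; adjusted p = 6.71e-05). Prg2, the major basic protein, had 321 to 11706 CPM (median 710.4) in GMP libraries, against 1.31 to 64.2 CPM (median 9.81) in MEP libraries (7.10 ± 0.81 log2; adjusted p = 0.000464). The eosinophil ribonuclease genes Ear1, Ear2 and Ear6, near-identical relatives whose reads may be shared, had fitted differences of 8.28, 7.14 and 7.22 log2. Ear1 had 1101 reads over the GMP libraries and 3 over the MEP libraries, a log2 ratio of 8.76 with a 95% counting interval of 7.21 to 11. Siglecf, a sialic acid receptor of eosinophils, differed by 4.46 log2 (adjusted p = 7.49e-05). Summed over the list, GMP libraries had 635 to 13038 CPM, against 6.77 to 73.9 CPM in MEP libraries. All 7 were also called without replicates 7 and 9, and within series M32 and within series M33.

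Basophil and mast cell genes were higher for 4 of 5 tested (median 5.32 log2). Hdc, which makes histamine, had 594 to 1025 CPM (median 660.0) in GMP libraries, against 3.43 to 13.3 CPM (median 5.63) in MEP libraries (6.90 ± 0.40 log2; adjusted p = 2.33e-05). Cpa3, a mast cell carboxypeptidase, differed by 5.32 log2 (adjusted p = 3.67e-05). Prss34, a basophil protease, had 548 reads in GMP and 2 in MEP libraries, a log2 ratio of 8.34 (95% counting interval 6.48 to 11.4). Gata2, a factor of both progenitors and mast cells, was higher by 0.86 ± 0.19 log2 (adjusted p = 0.0148), with overlapping groups. Il1rl1, the IL-33 receptor, did not pass (0.42 log2; adjusted p = 0.364). The mast cell gene Ms4a2 and the basophil protease Mcpt8, in the GMP table only, had medians of 28.8 and 11.5 CPM.

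**Figure D3:**
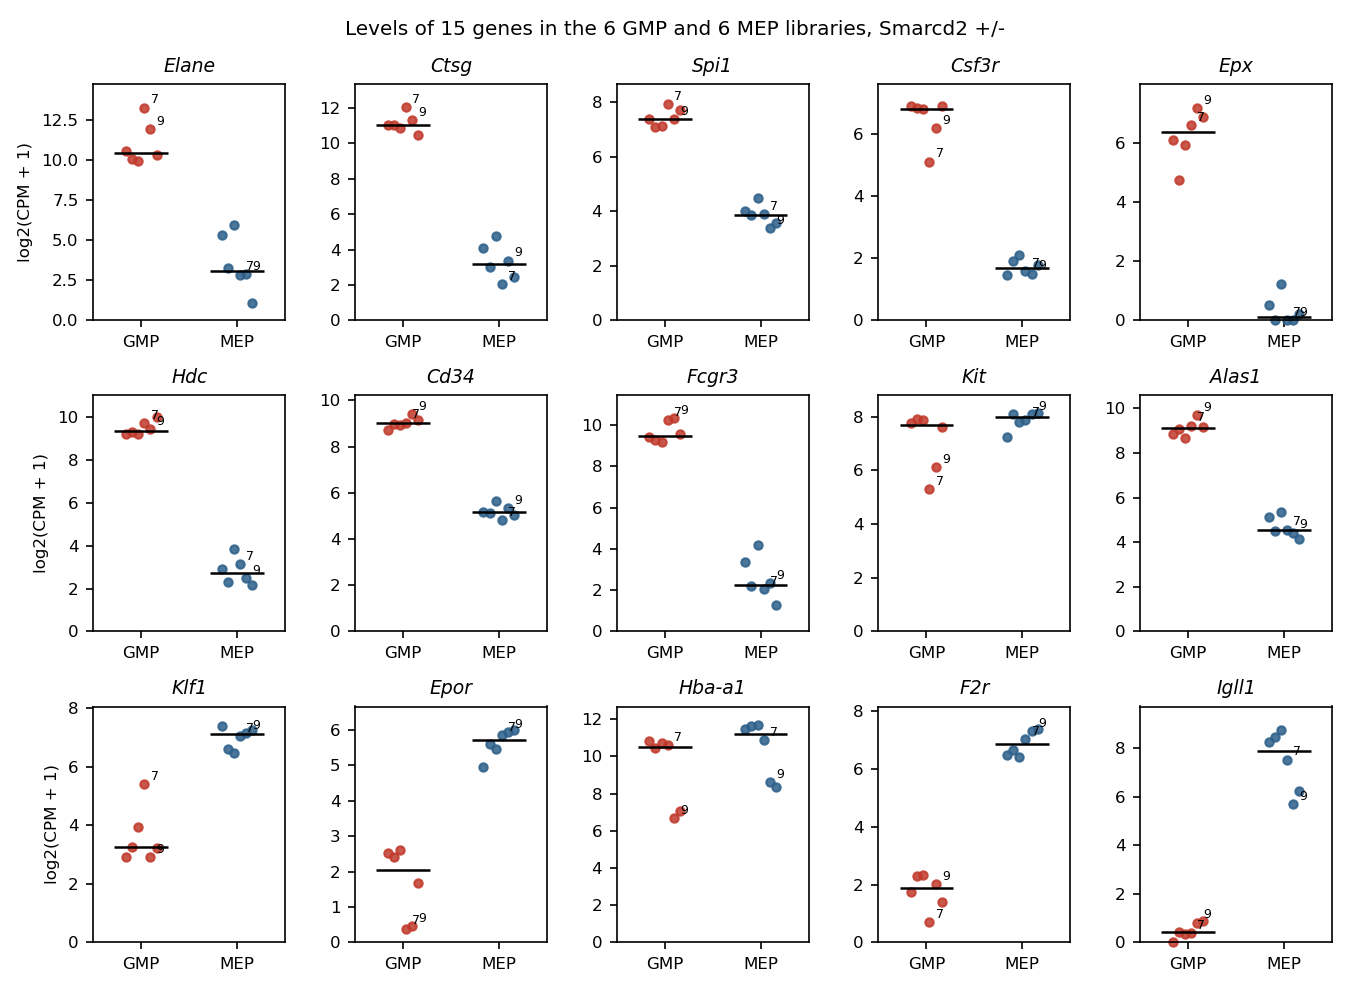
Levels of 15 genes in each library as log2(CPM + 1), GMP left of MEP, 1 point for a library, bars at medians and GMP libraries 7 and 9 numbered. The granule, receptor, eosinophil and basophil genes and Alas1 are higher in GMP; Klf1, Epor, F2r and Igll1 are lower; Hba-a1 and Kit overlap.

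The erythroid program was lower in GMP. Of 20 tested erythroid transcription factors, 10 were lower and 2 higher (median -0.98 log2). Klf1, the factor that activates adult globin and membrane genes, had 6.47 to 41.6 CPM (median 8.46) in GMP libraries, against 86.4 to 164 CPM (median 136) in MEP libraries (-3.45 ± 0.44 log2; adjusted p = 0.000764). The highest GMP value, 41.6 CPM, was that of library 7. Gata1, the leading erythroid factor, was lower, at -2.13 ± 0.24 log2 (adjusted p = 0.000389), as was Gfi1b, a repressor of the lineage, at -3.30 ± 0.26 log2 (adjusted p = 6.40e-05). Bcl11a, which silences fetal globin genes in human red cells, was lower, at -2.88 log2 (adjusted p = 8.93e-05). The factors higher in GMP were Gata2 and Nfe2 (0.82 log2; adjusted p = 0.0103). The other 8 did not pass, Runx1 (0.67) and Lyl1 (0.12) among them. Without replicates 7 and 9, 13 were lower and 3 higher.

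Zfpm1 (chr8:122282141-122337251, plus strand), which encodes FOG1, the partner of GATA1, was lower, at -3.49 ± 0.56 log2 (adjusted p = 0.00271). It had 0.311 to 2.98 CPM (median 2.05) in GMP libraries, against 7.44 to 27.9 CPM (median 21) in MEP libraries, with no overlap. Alas1 (chr9:106233455-106248654, minus strand), the housekeeping enzyme that starts haem synthesis, was higher by 4.49 ± 0.33 log2 (adjusted p = 5.62e-05). It had 403 to 834 CPM (median 555) in GMP libraries, against 16.8 to 39.9 CPM (median 22.1) in MEP libraries, with every GMP library above every MEP library. These 2 genes had the largest absolute fold changes among the called erythroid factor, haem and globin genes with an entry, and their promoters are printed from RefSeq on GRCm38.p6. Alas1 lies on the minus strand at chr9:106247905-106248204 and Zfpm1 on the plus strand at chr8:122281891-122282190.
Alas1: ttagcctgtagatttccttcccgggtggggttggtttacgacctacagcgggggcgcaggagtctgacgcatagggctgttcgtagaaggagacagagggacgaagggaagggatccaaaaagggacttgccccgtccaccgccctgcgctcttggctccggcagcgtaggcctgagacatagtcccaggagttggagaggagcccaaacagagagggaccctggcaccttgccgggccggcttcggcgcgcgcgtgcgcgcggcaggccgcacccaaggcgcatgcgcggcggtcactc
Zfpm1: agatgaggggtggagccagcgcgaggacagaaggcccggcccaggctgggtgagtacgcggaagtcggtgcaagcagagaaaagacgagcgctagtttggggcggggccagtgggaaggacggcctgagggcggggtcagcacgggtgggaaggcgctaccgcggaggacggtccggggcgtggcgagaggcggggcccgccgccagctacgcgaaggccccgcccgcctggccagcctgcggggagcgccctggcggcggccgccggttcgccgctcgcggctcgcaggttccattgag
Neither window held any of the 4 searched letter strings, so no base is in capitals.

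Red cell surface and membrane genes were lower for 22 of 26 tested, with a median of -2.18 log2 and none higher. Epor, the erythropoietin receptor, had 0.311 to 5.14 CPM (median 3.26) in GMP libraries, against 29.8 to 63.0 CPM (median 52.1) in MEP libraries (-4.30 ± 0.62 log2; adjusted p = 0.00151). The urea transporter Slc14a1, the water channel Aqp1 and the carbonic anhydrase Car1 were lower, at -5.88, -5.74 and -5.44 log2 (adjusted p = 0.000209, 0.000852 and 2.08e-05). Groups were apart for these 4. Cd36, the fatty acid transporter of early red cell precursors, differed by -3.55 log2, and the transferrin receptor Tfrc by -2.07 log2. Slc4a1, the band 3 anion exchanger, Epb41 and Cd47 did not pass, nor did Mns1, which is on the list though it does not encode a red cell membrane protein. Within series M32 12 of the list were lower and within series M33 22.

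Haem and iron genes were mixed, with 9 of 28 tested lower, 1 higher and a median of -0.90 log2. The 1 higher was Alas1, while Alas2, the erythroid form of the same enzyme, had 0.761 to 67.3 CPM (median 51.8) in GMP libraries, against 10.6 to 153 CPM (median 69.5) in MEP libraries and did not pass (-1.10 ± 0.39 log2; adjusted p = 0.0899). Cpox, the coproporphyrinogen oxidase, the iron transporter Slc11a2 and the ferrireductase Steap3 were lower, at -2.87, -1.89 and -2.46 log2 (adjusted p = 0.000551, 0.000367 and 0.00162). Fth1, Ftl1 and Hmox1, which store iron or break haem down, did not pass. The 10860-gene fit without replicates 7 and 9 had 17 lower and 4 higher.

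Globin genes had a smaller difference than the membrane genes, by their list medians. Of 7 listed and tested, 4 were lower and the median was -1.10 log2. Hba-a1 had 103 to 1806 CPM (median 1473) in GMP libraries, against 325 to 3344 CPM (median 2369.7) in MEP libraries (-1.06 ± 0.24 log2; adjusted p = 0.0170). The groups overlapped, and GMP was lower in 6 of 6 pairs. Hba-a2, Hbb-bs and Hbb-bt were lower, at -0.98, -1.34 and -1.40 log2, but each pair of genes is near-identical and their reads may be split. Summed over the list, libraries of series M32 had 3765 to 6397 CPM in GMP, against 6546 to 12378 CPM in MEP. Libraries of series M33 had 313 to 436 CPM in GMP, against 1172 to 1282 CPM in MEP, and the ranges of the series did not overlap in either population. No globin gene was called within series M32, and 5 were lower within series M33. The embryonic genes Hbb-bh1 and Hbb-y did not pass (-1.24 and -0.71 log2).

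Megakaryocyte genes split. Of 19 tested, 12 were lower in GMP and none was higher, with a median of -2.49 log2. F2r, the thrombin receptor PAR1, had 0.621 to 4.06 CPM (median 2.71) in GMP libraries, against 83.8 to 164 CPM (median 116) in MEP libraries (-5.55 ± 0.44 log2; adjusted p = 7.14e-05). Rab27b, a granule traffic GTPase, and Pf4, platelet factor 4, were lower, at -2.49 and -2.59 log2 (adjusted p = 0.000367 and 0.00243), as was the related receptor F2rl2 (-3.23 log2). Slc35d3, a platelet dense granule transporter, had 2 reads in GMP and 145 in MEP libraries. Itga2b (CD41), Fli1 and Thbs1 were not called, at -0.06, 0.57 and 0.06 log2. With replicates 7 and 9 left out, 12 were lower and 5 higher.

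Among 14 tested genes of erythropoietin and STAT5 signalling, 2 were lower, 1 was higher and the median was -0.65 log2, beside 16.9% of all tested genes called. Epor and the feedback inhibitor Socs2 (-4.49 log2; adjusted p = 0.00180) were lower, and Ptpn6, the phosphatase SHP-1, higher (1.65 log2; adjusted p = 0.000876). Jak2, Stat5a and Stat5b did not pass over the 6 pairs. Without replicates 7 and 9, 4 were lower and 2 higher, Jak2 among the lower (-0.60 log2; adjusted p = 0.0342). Stem cell genes did not move one way, with 3 of 17 higher, 6 lower and a median of 0.02 log2. Slamf1, the CD150 antigen, and Mycn, a Myc family factor, were lower, at -5.68 and -3.83 log2 (adjusted p = 0.000276 and 0.00306). Msi2, an RNA-binding protein, was lower, at -1.68 log2. Cd34, Igf2bp3 and Cd48 were higher. The fit without replicates 7 and 9 had 6 stem cell genes higher and 7 lower.

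B cell genes were lower in GMP than in MEP. Of 19 tested lymphoid and B cell genes, 15 were lower, none was higher and the median was -5.54 log2. Igll1, the surrogate light chain, had 0 to 0.833 CPM (median 0.334) in GMP libraries, against 51.4 to 422 CPM (median 242) in MEP libraries (-8.62 ± 0.62 log2; adjusted p = 5.37e-05). Cd79a, a chain of the B cell receptor, had 3 reads over the GMP libraries and 1210 over the MEP libraries, a log2 ratio of -8.41 (95% counting interval -10.7 to -6.86). Every MEP library had at least 51.4 CPM of Igll1, and no GMP library more than 0.833 CPM. Pax5, the B cell commitment factor, had 0 reads in GMP and 197 in MEP libraries, and was at least 55.5-fold lower against a floor of 3 reads over the group. Vpreb2, a near-identical relative of Vpreb1, was at least 65.1-fold lower. Rag1, Il7r and Vpreb1 were lower, at -5.83, -5.95 and -5.98 log2 (adjusted p = 0.00249, 0.000444 and 0.00103). Summed over the list, series M32 had 127 to 451 CPM in GMP, against 1196 to 2626 CPM in MEP. Series M33 had 189 to 307 CPM in GMP, against 447 to 512 CPM in MEP. Cd79b, Il2rg, Notch1 and Satb1 were not called. The gates excluded B220+ cells, and the part of other cells in the MEP gate was not tested. Outside the list, Trib2, a pseudokinase, and St3gal6, a sialyltransferase, were lower, at -6.14 and -5.87 log2.

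**Figure D4:**
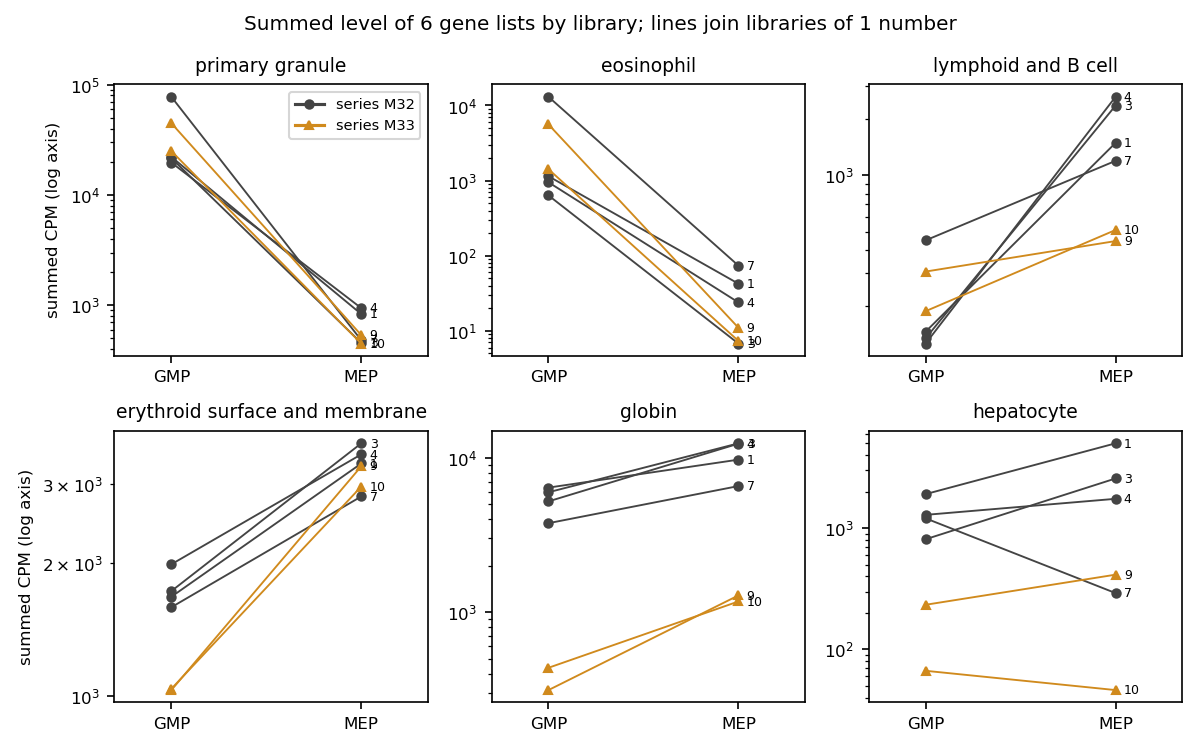
Summed CPM of 6 gene lists in each library on a log axis, GMP left of MEP, with lines joining libraries of the same replicate number, grey circles for series M32 and orange triangles for series M33. Primary granule and eosinophil sums are higher and B cell and red cell membrane sums lower in GMP; globin sums are lower in series M33 in both populations, and hepatocyte sums of the series overlap in MEP.

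Few DNA replication and mitosis genes were called over the 6 pairs. Of 40 tested DNA replication genes, 2 were lower in GMP, Pcna and Pola1 (-0.68 and -1.17 log2), and the median was -0.02 log2. Of 35 mitosis genes, Aurkb was the 1 called, higher by 0.84 log2 (adjusted p = 0.0393), and the median was 0.05 log2. Over the 6 pairs, the share of called genes in both lists lay below that of all tested genes. Among 25 genes of G1 control, 2 were higher and 4 lower, a larger share than over all tested genes. Cdkn1a, the p21 inhibitor, was higher by 1.77 ± 0.31 log2 (adjusted p = 0.00432) with groups apart. E2f2, an S-phase factor, Ccne1 and Ccnd2 were lower, at -2.73, -1.41 and -1.09 log2 (adjusted p = 0.00550, 0.00924 and 0.0148). Ribosome biogenesis genes had 4 of 30 lower and none higher, with a median of -0.50 log2, beside 6.58% lower and 10.4% higher over all tested genes. Ddx21 and Nop58, factors of rRNA processing, were lower, at -1.38 and -1.13 log2. Without replicates 7 and 9, 17 of that list were lower. The same fit had 10 replication genes lower and 1 higher, 4 mitosis genes lower and 1 higher, and 6 G1 control genes lower and 4 higher of 24 tested.

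Lists of markers of other cells in fetal liver were counted in the same way. Hepatocyte genes had 2 of 20 higher and none lower over the 6 pairs, near the 10.4% higher over all tested genes, and 13 lower with 2 higher without replicates 7 and 9. Alb, the albumin gene, was not called (-1.18 log2; adjusted p = 0.0743), and Apoc1 and Krt18, which other cells also express, were higher (2.78 and 2.0 log2). The hepatocyte list's summed level was 809 to 1905 CPM in GMP and 291 to 4993 CPM in MEP libraries of series M32. It was 66.6 to 233 CPM in GMP and 46.2 to 413 CPM in MEP libraries of series M33, and its part in the results was not tested. Fetal liver macrophage genes had 2 of 5 higher, Adgre1 (F4/80, 4.93 log2) and Vcam1 (2.03 log2), and Slc40a1, the iron exporter, lower (-1.46 log2). Of 4 dendritic cell and antigen presentation genes, H2-DMa was higher (2.20 log2) and Zbtb46 and Tcf4 lower (-3.77 and -1.48 log2). Pecam1 and Pdgfrb were higher among 4 endothelial and stromal genes (1.77 and 1.79 log2). Interferon response genes had 3 of 13 higher, Irf1 and Gbp3 among them (1.22 and 1.74 log2). Immediate early genes, which can respond to the handling of cells, had 4 of 15 higher, among them Dusp1 and Fos (1.38 and 0.81 log2; adjusted p = 0.0103 and 0.0112), and 7 when replicates 7 and 9 were left out. The part of that response in other results was not tested.

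**Figure D5:**
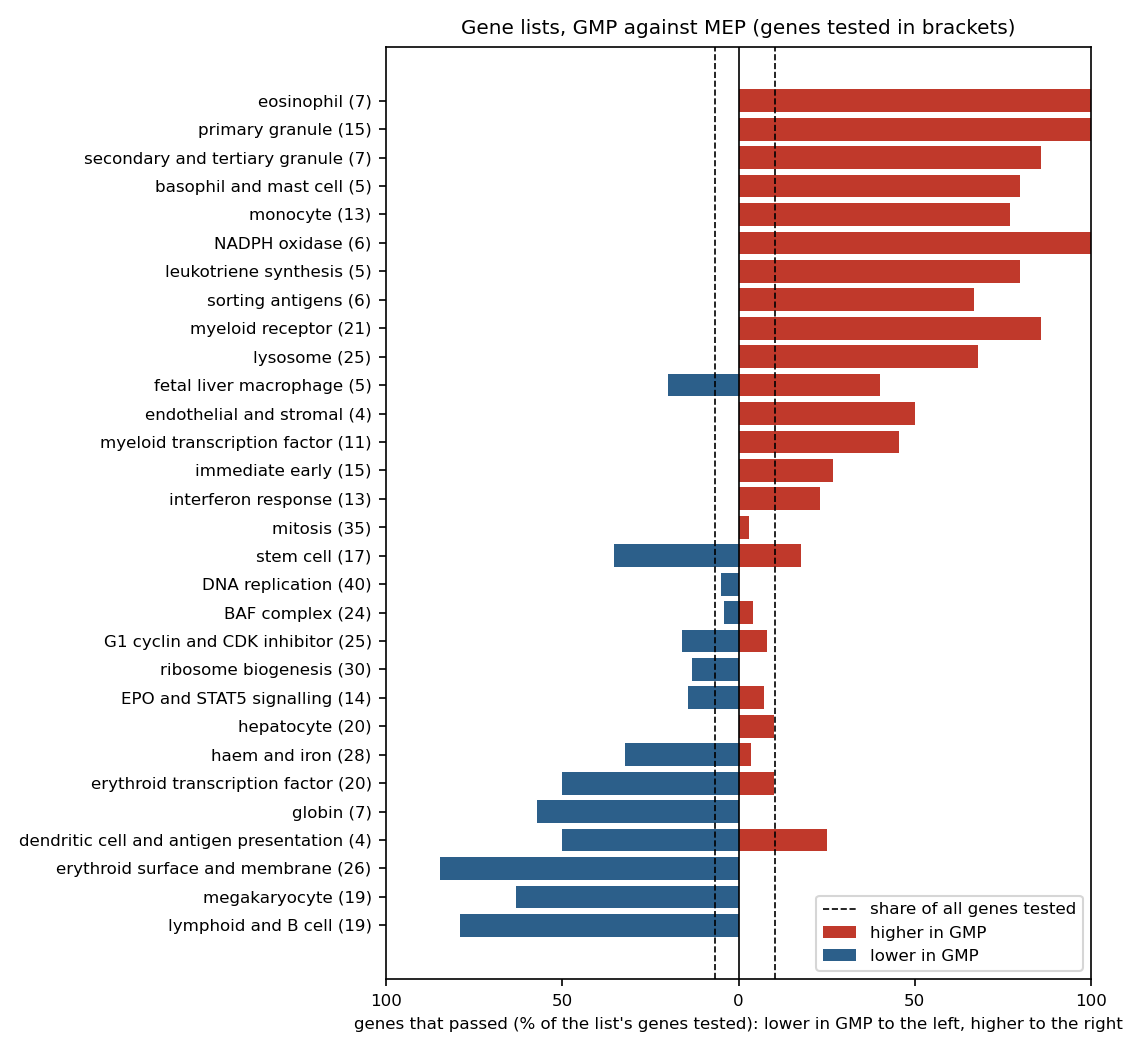
Percent of the tested members of each of the 30 gene lists that were called higher in GMP (bars to the right) and lower in GMP (bars to the left), with dashed lines at the share over all tested genes, 10.4% higher and 6.58% lower. Primary granule, NADPH oxidase and eosinophil genes are all higher, and lymphoid and B cell and erythroid surface genes are mostly lower.

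Promoters of called genes were read for 4 letter strings on both strands: TTGCNNAA for the C/EBP family, AGATAA for GATA factors, GAGGAAG for PU.1 and CACACCC for KLF factors, with N any base and none contained in another. An entry was found for 870 of the genes higher in GMP, 536 of those lower and 7828 of all tested, and 27025 promoters were read in all. GAGGAAG stood in 17.1% of the promoters of genes higher in GMP (exact 95% interval 14.7 to 19.8%), 12.7% of those of genes lower in GMP, 13.3% of those of all tested genes and 13.5% of all promoters. TTGCNNAA stood in 10.6% of the higher, 9.14% of the lower, 8.05% of the tested and 10.8% of all. AGATAA stood in 7.13% of the higher, 8.02% of the lower, 6.34% of the tested and 11.4% of all. CACACCC stood in 10% of the higher, 7.65% of the lower, 7.88% of the tested and 7.85% of all. A match is a description of letters and does not show that a factor binds.

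The same population difference was set beside those of the other genotypes in 1 model of 24 libraries and 12217 genes. Within this model 1637 genes were called in HET pairs, 704 genes (5.76%) in WT pairs and 1402 (11.5%) in KO pairs, with 6, 3 and 3 pairs. No gene's GMP to MEP difference was called different between HET and WT by edgeR (0.0%), with 31 genes at an unadjusted p under 0.05 and a lowest adjusted p of 0.765, which does not show that the genotypes are alike. DESeq2 and limma also called 0, with 44 and 34 at an unadjusted p under 0.05. These counts lie far under the 1 in 20 of 12217 genes that evenly spread p-values would give, so the p-values run high. The 0 calls of the 3 tools, made on the same libraries, are therefore not separate support. The 3 smallest p-values were those of mt-Atp6, Ngp and Serpinb2, which had few reads; Ngp, a secondary granule gene, averaged 0.858 CPM in GMP and 2.72 CPM in MEP of HET, and 10.3 CPM in GMP and 0.361 CPM in MEP of WT. Between HET and KO, edgeR again called 0 genes (0.0%), with 971 at an unadjusted p under 0.05 and a lowest adjusted p of 0.0860. DESeq2 called 179 and limma 4. Without KO replicate 13 edgeR called 211, and without the replicate block 54, so the count of 0 depends on these settings. The smallest p-values were those of Gimap4 (-5.72 log2 in HET and 2.03 in KO), Gramd3 (3.12 in HET and -3.28 in KO) and Il1rl1 (0.39 in HET and 3.85 in KO). Il1rl1 averaged 15.5 CPM in HET, 61.6 CPM in KO and 11.1 CPM in WT GMP libraries. Ctsg averaged 2265 ± 916 CPM in HET, 244 ± 129 CPM in KO and 2619.5 ± 413 CPM in WT GMP libraries. Ly6c2 averaged 138 CPM in HET, 1.19 CPM in KO and 178 CPM in WT GMP libraries. For Ctsg and Ly6c2, the GMP to MEP difference was not called different between HET and KO by edgeR (1.48 and 6.03 log2, adjusted p = 0.677 and 0.246). Levels in GMP libraries alone were not tested between genotypes. Spike-in reads were 2.52 to 3.06% in KO GMP libraries, against 0.121 to 0.394% in HET GMP and 0.116 to 0.195% in paired KO MEP libraries. KO pairs 13 and 15 belong to series M34, which has no HET pair. GMP libraries of KO 6 and 15 had length indices of -1.12 and -1.32 over the 24 libraries. The part of spike-in share and series in the genotype differences was not tested.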

How the data were processed

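Libraries were made by Smart-seq2, per the labels' protocols. The method covers whole transcripts and carries no strand or molecule tag, so PCR copies are counted and intervals cover counting error only. The authors deposited raw counts of reads by Ensembl gene, 1 table for each population. The submitters' processing notes name featureCounts, mm10 and GRCm38, and the aligner is not given in the sources used here. Synthetic spike-in RNAs, 0.121 to 0.394% of reads in the HET GMP and 0.145 to 0.277% in the HET MEP libraries compared, entered neither library sizes nor tests. Replicate 8 was left out: its GMP library held 83.8% of reads in 10 genes.

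Genes listed in both tables were fitted by edgeR 4.0.16 in R 4.3.3 (quasi-likelihood, robust, TMM) with the replicate number as a block, as the comparison's rule sets it. The filter was filterByExpr, with a minimum count of 10 and a minimum total of 15. Every adjusted p is from this test with Benjamini-Hochberg adjustment over 11019 genes, unless another tool or fit is named, and calls use 0.05. Values without replicates 7 and 9 were adjusted over the 10860 genes of that fit, and those of the genotype interactions over 12217. SE is the fold change divided by the root of F. The model was also run on simulated counts. The outcome is not reported here, so no support for the fit to these libraries is drawn from that run. The interactions used 6 HET, 3 WT and 3 KO pairs in 1 edgeR model. Symbols and positions came from the reference annotation on GRCm38, and promoters from RefSeq.

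Sex-linked transcripts matched in 6 of 6 pairs, with Xist at least 182 CPM against at most 5.91 CPM. Correlations of paired deviations from the population means were -0.376, 0.473, 0.339, -0.150, 0.0228 and 0.271 for replicates 1, 3, 4, 7, 9 and 10. The highest correlation of each GMP library with an MEP library of another number was 0.373, 0.326, 0.483, 0.516, 0.558 and 0.304. Only for replicate 3 was the same number the higher, so these correlations give no support for the pairing.

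Named genes are Smarcd2, the sorting antigens, the 10 largest changes each way with a mean log2(CPM + 1) no lower than 3 and all 6 pairs on 1 side, up to 4 members a list by smallest p, and the 3 smallest p of each interaction. Other list members are named to show where a list did or did not pass. Some genes stand in several lists, and a few named genes are not reported here. Members and lists were chosen with earlier results of these data known. Alternatives were other scaling, filters and tools (DESeq2 1.42.0, limma 3.58.1), each replicate left out, each series alone, the spike-in share, no replicate block and a fold threshold of 2. Models without replicates 7 and 9, without 1, 7 and 9, and with the length index were chosen after seeing the data.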

Additional observations from a re-analysis of the deposited data

Results flagged for a closer look

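For 132 named genes in each population, the gap of the highest or lowest library to its neighbour was compared with the range of the 6 libraries. This singled out 30 of 264 gene and population pairs. A chance rate of about 1 in 20 assumes independent, normally spread values. The levels were CPM without a log scale, and the genes share the same libraries, so no comparison with chance is drawn. In 17 of the 30 the library was GMP library 7, the one with the lowest transcript length index, and the part of that index in these values was not tested.

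GMP library 7 was far above the other 5 for the granule and myeloid genes Elane (9887 CPM), Prtn3 (1393), Pglyrp1 (278), Cebpd (62.1), Fcer1g (933), Plac8 (2445) and Prss34 (113). It was also far above them for Klf1 (41.6 CPM), Krt18 (111), Ccne1 (135), Klf6 (128), Ier2 (176) and Gramd3 (46.0). It was the highest for the B cell genes Vpreb1 (4.04 CPM) and Rag1 (4.35) and for Trib2 (4.66), levels that rest on few reads. It was far below the others for Siglecf (36.0 CPM).

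Other GMP libraries stood out for genes with low levels. Library 10 was highest for Il7r (3.61 CPM), Slc35d3 (0.555 CPM) and Il1rl1 (31.6 CPM). Library 4 was highest for Aqp1 (2.97 CPM) and Gimap4 (1.62 CPM), and library 1 for Cd79a (1.19 CPM).

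Among MEP libraries, library 4 was highest for Epx (1.33 CPM) and Prss57 (3.99 CPM) and lowest for Ccne1 (113 CPM). Library 1 was highest for BC100530 (6.13 CPM), Apoc1 (7.44 CPM) and Krt18 (17.5 CPM), and library 3 for Tyrobp (10.8 CPM).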

How the results depend on the processing

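The count of called genes, 1866, moved to 1243 with a stricter filter, 827 with replicate 8 included, 667 with only series M32, 719 with a fold threshold of 2 and 3372 with the spike-in share in the model. Among alternatives chosen after seeing the data it moved to 3650 without replicates 7 and 9, 3395 without 1, 7 and 9, and 3391 with the length index. Leaving out 1 replicate gave 1138 to 2270. It stayed within 1.5 times with RLE scaling (1853), no filter (2099), DESeq2 (2742), limma (2068), series M33 alone (1623) and no replicate block (2527: 1599 higher, 928 lower). List members called, 210, moved to 123 with only series M32, and leaving out 1 replicate gave 173 to 242. The 0 genes different between HET and KO moved to 54 with no replicate block, 179 with DESeq2, 4 with limma and 24 with the length index, and leaving out 1 replicate gave 0 to 211. The 0 between HET and WT stayed 0. With only the 250 bases before the start site, GAGGAAG stood in 14.0% of promoters higher in GMP, and in all promoters the shares were 9.55% (C/EBP), 10.3% (GATA), 10.4% (PU.1) and 6.85% (KLF). Of 116 named genes called, 0 reversed, 110 held with no replicate block and 80 with only series M32; the uncalled Smarcd2, Kit and Eng changed sign under some settings. The causes were not tested. Depth limits genes with few reads in a population, and precision in GMP is limited by libraries 7 and 9.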
